A study of Caenorhabditis elegans with 2 samples.

Results

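The heterochronic genes of Caenorhabditis elegans set which larval stage a cell behaves as, and 10 of them were examined for peaks of the Hox protein PHP-3: lin-14, hbl-1, lin-41, lin-28, lin-46, lin-66, lin-42, lin-29, alg-1 and ain-1. Peaks were assigned to a gene where the peak summit lay in the gene body, between its outermost annotated ends, or upstream as far as the next protein-coding gene in the Ensembl annotation of WBcel235. That stretch is called the territory of the gene. These were 10 of 19973 protein-coding genes, and their territories held 17 of the 3559 peaks of the series-wide thresholded list. Of the 10 genes, 7 had at least 1 such peak. The strongest was at ain-1, and lin-29, lin-41 and lin-46 had none.

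PHP-3 was profiled by chromatin immunoprecipitation with sequencing (ChIP-seq), using an antibody against GFP, in whole L4 larvae aged 48 h. All animals were of 1 strain, RW12213, in which CRISPR placed a TY1::EGFP::3xFLAG tag in php-3 on chromosome III (allele st12213), and cultures had been synchronised by starving L1 larvae hatched after bleaching. The 2 biological replicates form a single group, so no condition is compared and no test between groups exists. Whole animals were used, so the cell types that contribute to a peak cannot be told apart, and no untagged or input library was analysed here.

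PHP-3 is a posterior Hox protein of the Abdominal-B class. In the heterochronic pathway, lin-14, hbl-1, lin-28 and lin-41 keep early larval fates, and the microRNAs lin-4 and let-7 with its relatives switch them off in turn as larvae grow. The Argonaute ALG-1 and its GW182-like partner AIN-1 carry out microRNA repression, lin-42 encodes a relative of the clock protein PERIOD, and the zinc-finger factor LIN-29 drives the change from larva to adult in the skin, including the seam cells.

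The DNA under the summits is shown for the strongest peak of each gene where it could be printed, followed by 4 windows that differ in their motifs or base composition. Each run reaches 50 bp to each side of the summit, 5′ to 3′ on the plus strand of WBcel235 (ce11), read from the RefSeq genome. Capitals mark matches on either strand to a posterior Hox motif (TTTAT or TTTAC followed by GA, GG, TA or TG), to the GATA-factor motif TGATAA, or to GAGAGA. The 2 GAGAGA matches at alg-1 overlap each other. Distances are from the outermost annotated 5′ end of the gene.
ain-1, 891 bp upstream, chrX:16612510-16612610: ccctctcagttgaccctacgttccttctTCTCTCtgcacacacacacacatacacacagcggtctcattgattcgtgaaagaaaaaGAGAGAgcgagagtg
hbl-1, 8928 bp upstream, chrX:5813164-5813264: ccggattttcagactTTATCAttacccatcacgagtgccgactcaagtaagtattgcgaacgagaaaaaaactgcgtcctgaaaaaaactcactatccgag
alg-1, 1774 bp upstream, chrX:13947286-13947386: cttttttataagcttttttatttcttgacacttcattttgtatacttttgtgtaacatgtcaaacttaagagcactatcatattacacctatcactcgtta
lin-14, 1462 bp downstream, chrX:11466972-11467072: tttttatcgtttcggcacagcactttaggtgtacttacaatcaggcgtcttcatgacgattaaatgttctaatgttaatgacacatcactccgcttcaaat
lin-66, 436 bp upstream, chrIV:13887593-13887693: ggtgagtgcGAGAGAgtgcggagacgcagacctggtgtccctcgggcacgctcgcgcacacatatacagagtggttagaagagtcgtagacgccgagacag
lin-42, 9811 bp downstream, chrII:1242498-1242598: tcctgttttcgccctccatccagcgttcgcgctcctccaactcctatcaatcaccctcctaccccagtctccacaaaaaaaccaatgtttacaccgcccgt
alg-1, 844 bp upstream, chrX:13948216-13948316: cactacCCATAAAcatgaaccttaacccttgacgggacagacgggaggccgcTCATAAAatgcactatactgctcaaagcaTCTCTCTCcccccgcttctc
lin-14, 4185 bp downstream, chrX:11469695-11469795: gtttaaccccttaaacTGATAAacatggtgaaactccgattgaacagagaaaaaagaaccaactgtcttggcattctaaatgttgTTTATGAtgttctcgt
lin-42, 14295 bp downstream, chrII:1238014-1238114: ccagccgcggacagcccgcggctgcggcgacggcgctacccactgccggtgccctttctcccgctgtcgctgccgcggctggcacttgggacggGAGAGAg
lin-66, 3425 bp upstream, chrIV:13884604-13884704: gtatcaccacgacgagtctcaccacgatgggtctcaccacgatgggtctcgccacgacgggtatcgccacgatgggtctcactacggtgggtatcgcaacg

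In these 10 windows, the posterior Hox letters occur at the weaker alg-1 peak and at a weak lin-14 peak, and in none of the 6 strongest. GAGAGA stands in the strongest windows of ain-1 and lin-66. The second lin-66 run is a tandem repeat, in which 83.7% of bases equal the base 15 bp before. The second lin-42 run is made mostly of G and C (75.2%).

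A peak's signal value is the value deposited under that name in the authors' list, in the authors' own units. Its score, at most 1000, is scaled from the irreproducible discovery rate, a measure of disagreement between paired peak lists. The thresholded list holds peaks with a score of at least 830, and its median signal was 120.2, with quartiles at 94.9 and 169. A conservative list of 3495 peaks was kept from another ranking, the one that pairs the 2 replicates. The 7 of 10 heterochronic genes with a thresholded summit compare with 15.3% of all coding genes. Long territories catch more summits by their length: the median territory was 12.5 kb for the 10 genes and 3.5 kb for all coding genes. Among genes of like territory length the counts were 1 of 2 under 5 kb (background 9.58%), 2 of 3 from 5 to 10 kb (21.4%), 1 of 1 from 10 to 20 kb (30.0%) and 3 of 4 over 20 kb (41.1%).

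The 4 heterochronic genes on the X chromosome, lin-14, hbl-1, alg-1 and ain-1, all had a thresholded summit, against a background of 23.9% for X-linked genes, and 3 of the 6 on autosomes did, against 14.0% of autosomal coding genes. Of the 10 genes, 6 had at least 2 summits, against 3.97% of coding genes. None of these backgrounds, for the X, the autosomes or 2 or more summits, was matched on territory length. The median territories were 12.5 kb for the 10 genes and 3.5 kb for all coding genes. Summits stood at 1.08 per 10 kb of the 10 territories (17 in 156.9 kb) and at 0.35 per 10 kb of the genome. On the X the 4 territories held 1.45 per 10 kb and the chromosome 0.47, and the 6 autosomal territories held 0.74 against 0.33 for all autosomes. These figures are descriptions of a chosen set and were not tested.

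**Figure D1:**
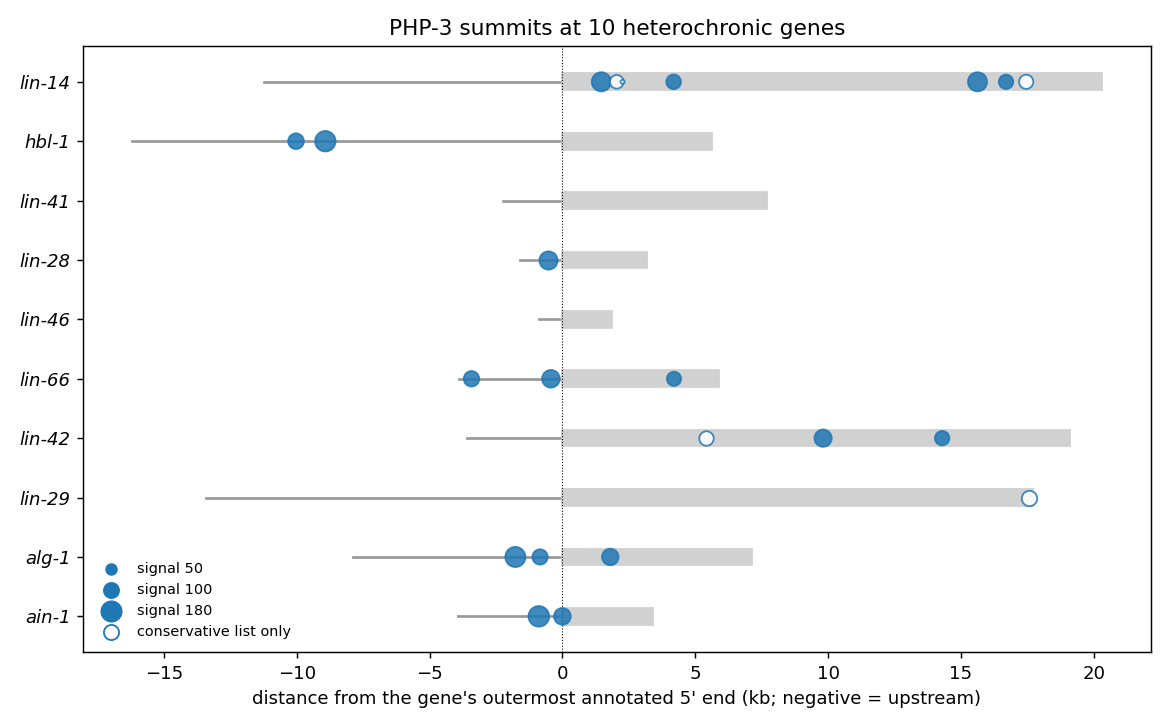
Position of PHP-3 summits along each heterochronic gene, in kb from its outermost annotated 5′ end. Grey bars are gene bodies, grey lines the upstream sequence as far as the next coding gene, filled circles summits of the thresholded list with area in proportion to signal, and open circles summits of the conservative list alone. Summits of lin-14 and lin-42 lie inside the genes, those of hbl-1, lin-28 and ain-1 lie upstream, and lin-41 and lin-46 have none.

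Of the 17 summits, 9 were upstream in intergenic sequence and 8 were in gene bodies, of which 6 were in introns, 1 in a coding exon and 1 in a 5′ UTR. Gene bodies alone held a summit in 4 of 10 heterochronic genes, against 5.94% of coding genes. That background was not matched on gene length. The 4 bodies span 20.3 kb at lin-14, 19.1 kb at lin-42, 7.2 kb at alg-1 and 5.9 kb at lin-66. The median signal of the 17 peaks, 122, lay beside the list's median of 120.2, with 3 peaks in the top quartile and 4 in the lowest. A score of 1000 was reached by 11 of the 17 and by 76.1% of the list. The heterochronic peaks thus lay on both sides of the list's middle rather than at its top. The smallest distance from any of them to a tRNA gene was 4445 bp.

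lin-14 encodes a nuclear protein that holds early larval fates and is the classic target of the lin-4 microRNA. Its territory spans 31.5 kb and held 4 thresholded summits, all in introns. The first lay 1462 bp into the gene (chrX:11466860-11467183) with a signal of 161, rank 988 of 3559, and signals of 91.3 in replicate 1 and 83.9 in replicate 2. Another lay 15626 bp in (chrX:11481024-11481347), 825 bp downstream of the start of isoform b, with a signal of 160.2, 94.5 in replicate 1 and 75.0 in replicate 2. Both were in the thresholded list of each replicate, so a peak that both replicates found lay downstream of the start of the long form and another downstream of the start of isoform b.

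The other lin-14 peaks were weaker. That at 4185 bp had a signal of 94.3, with 57.2 in replicate 1 and 33.3 in replicate 2, the lowest ratio of replicate 2 to replicate 1 among the 17 (0.58). The peak at 16700 bp had 90.9, with 50.7 and 54.2 in replicates 1 and 2. Neither was in a replicate's own thresholded list. At the outermost lin-14 start itself, 48 bp upstream, a ranked peak had a signal of 84.3 but scores of 83 and 772 in the series-wide ranked lists, and it was in no thresholded list.

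hbl-1 encodes a Hunchback-like zinc-finger factor of the second larval stage, repressed by let-7 relatives. Its summits lay far upstream in a 16.2 kb intergenic stretch shared with the divergent gene F13D11.3. The stronger (chrX:5813052-5813375), 8928 bp from hbl-1 and 7292 bp from F13D11.3, had a signal of 183, higher than 79.9% of the list, with 79.8 in replicate 1 and 89.2 in replicate 2. It was in both replicates' own lists, and its nearest 5′ end is that of F13D11.3. The weaker, 10032 bp upstream, had a signal of 108, with 52.4 and 51.2 in replicates 1 and 2, and was in neither own list.

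Another hbl-1 site stands between these and the gene. At 7676 bp upstream the ranked peak had a signal of 103, above 34.4% of the list, but scores of 76 and 524. Replicate 2 alone had a thresholded peak there, with a signal of 65.4 and a score of 858. The small RNA gene nearest to the hbl-1 summits is mir-791, 2677 bp from the weaker and 3781 bp from the stronger. Which gene a distal summit acts on was not tested.

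lin-28 encodes an RNA-binding protein that blocks let-7 maturation and keeps second-stage fates. In a territory of 4.8 kb its only thresholded summit lay 562 bp upstream (chrI:8411204-8411527), with a signal of 146, rank 1215, and 74.5 in replicate 1 and 76.7 in replicate 2. Both own lists held it, and the replicates differed by a ratio of 1.03. A TGATAA match is centred 4 bp from the summit. The divergent gene F02E9.7 begins 1056 bp from it, so lin-28 is the nearer of the pair sharing this intergenic stretch. The best signal in its territory exceeded that of 96.1% of coding genes with territories under 5 kb, the highest such share of the 10.

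lin-41 encodes a TRIM-NHL protein that is a main let-7 target. None of its 15 ranked summits, in 9.9 kb, passed the threshold. The strongest, in a coding exon 6249 bp from the 5′ end, had a signal of 69.9, scores of 631 and 469, and 32.3 and 40.5 in replicates 1 and 2. The next had a signal of 55.3. The best signal was lower in 75.3% of coding genes of all territory lengths, and in 66.7% of those with territories of 5 to 10 kb. By either share lin-41 ranked in the upper part without a called peak.

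lin-46 and lin-66 act beside lin-28. LIN-46 is a gephyrin-like protein that acts downstream of lin-28, and it had the least signal of the 10 genes. Its territory spans 2.7 kb and held 3 ranked summits, the best with a signal of 18.5 and scores of 82 and 75. No peak of either replicate's ranked list overlapped that one. The best signal was lower in 25.4% of coding genes.

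lin-66 negatively regulates lin-28. It had 3 summits in 9.8 kb, the densest of the 10 at 3.06 per 10 kb. The strongest lay 436 bp upstream (chrIV:13887481-13887804), with a signal of 137, 57.3 in replicate 1 and 70.8 in replicate 2. Replicate 2's own list held it with a score of 1000, while its score in replicate 1 was 728 and fell short. A second, 3425 bp upstream in the tandem repeat shown above, had a signal of 105, with 52.9 and 42.7 in replicates 1 and 2. Its nearest 5′ end is that of the upstream neighbour thoc-7, 1920 bp away.

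The remaining lin-66 summit was in a coding exon 4198 bp into the gene, 602 bp after the start of isoform b. Its signal was 88.4, with 46.2 in replicate 1 and 41.3 in replicate 2, the lowest signal of the 17. All 3 windows of lin-66 were rich in G and C, at 60.4%, 60.4% and 57.4%, against a median of 41.6% over the list. Lower shares than these were found in 96.1%, 96.1% and 92.4% of the list. Whether base composition or repeat content bears on these calls was not tested.

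lin-42 had its summits inside the gene, as lin-14 did. The stronger lay in an intron 9811 bp from the outermost 5′ end (chrII:1242386-1242709) and 1487 bp after the start of isoform b. It had a signal of 131, with 59.2 in replicate 1 and 74.8 in replicate 2, and both own lists held it. The weaker, 14295 bp in and 1095 bp upstream of the start of isoform a, had 91.7, with 54.8 and 48.9 in replicates 1 and 2, and was in neither own list. Its window had the highest share of G and C of the 17, above 99.9% of the list. No thresholded summit lay in the 3.6 kb upstream of lin-42.

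lin-29 had no summit in the thresholded list, in a territory of 31.1 kb with 42 ranked summits. The conservative list held 1 summit, 17546 bp into the gene in a 3′ UTR. It had a signal of 104, with 37.4 in replicate 1 and 55.4 in replicate 2, and scores of 892 in the ranking that pairs the replicates and 809 in the other. The neighbouring gene hmg-12 begins 1284 bp away and is the nearest 5′ end. The strongest lin-29 peak in neither series-wide list, in an intron 8627 bp into the gene, had a signal of 79.6 and scores of 500 and 354. Replicate 2 gave 44.8 there, and no ranked peak of replicate 1 overlapped it. Near the start of lin-29 the best ranked peak, 345 bp into the gene, had a signal of 66.7 and scores of 497 and 451.

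alg-1 had 3 summits in 15.0 kb, on both sides of its outermost 5′ end. The strongest lay 1774 bp upstream (chrX:13947174-13947497) with a signal of 177, rank 760. Replicate 1 gave 66.9 and a score of 535, and replicate 2 gave 99.4 and a score of 1000, so replicate 2's own list alone held it. Its window was poor in G and C, at 27.7%, lower than all but 3.82% of the list. A peak 1800 bp into the gene, 352 bp upstream of another annotated transcript start, had a signal of 120.2, with 43.9 in replicate 1 and 72.1 in replicate 2, the highest ratio of replicate 2 to replicate 1 of the 17 (1.64).

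The remaining alg-1 peak, 844 bp upstream, had a signal of 103, with 49.8 in replicate 1 and 45.9 in replicate 2. It carried both the Hox letters and GAGAGA, and neither own list held it. It was also the only 1 of the 17 within 1 kb of a small RNA gene, the snoRNA gene K02B9.10 at 933 bp. The neighbour upstream of alg-1, the GATA-factor gene elt-3 on the same strand, had no thresholded summit in its own territory.

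ain-1 had the highest signal of the 10 genes. Its summit 891 bp upstream (chrX:16612398-16612721) reached 186, rank 693, above 80.5% of the list. The replicates gave 86.7 and 90.3, and both own lists held it. The divergent gene F59C12.3 shares the intergenic stretch, and its 5′ end is 3036 bp away. A second summit, 4 bp upstream of the ain-1 start (chrX:16613285-16613608), had a signal of 122, with 46.7 in replicate 1 and 76.3 in replicate 2, and only replicate 2's own list held it.

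Agreement between replicates varied among the 17 peaks. Own thresholded lists of both replicates held 6 of them, replicate 2's list alone held 5, replicate 1's list alone held 0, and 6 were in neither. Of all 3559 peaks, 35.3% were in both. Shares of all peaks in 1 own list or in neither are not given here. Replicate 2's own list was the longer, with 2000 peaks against 1728 in replicate 1. The 6 heterochronic peaks in both lists were in 5 genes: lin-14 with 2 peaks, and lin-28, lin-42, hbl-1 and ain-1 with 1 each. By replicate 1's own list 5 of 10 genes had a summit, against 8.55% of coding genes, and by replicate 2's own list 7 of 10 did, against 9.62%. Neither background was matched on territory length.

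Replicate 2 gave the higher signal at 9 of the 17 peaks, and at 67.3% of the 3493 peaks of the list with a value in both. The median ratio of replicate 2 to replicate 1 was 1.03 for the 17, with a range of 0.58 to 1.64, and 1.14 for the list. Among the heterochronic genes the replicates were closest at lin-28, the weaker hbl-1 peak and the stronger ain-1 peak, and the 3 peaks with the highest ratios belonged to the microRNA effector genes alg-1 and ain-1. Read numbers are unknown, so whether sequencing depth differed between replicates cannot be given.

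**Figure D2:**
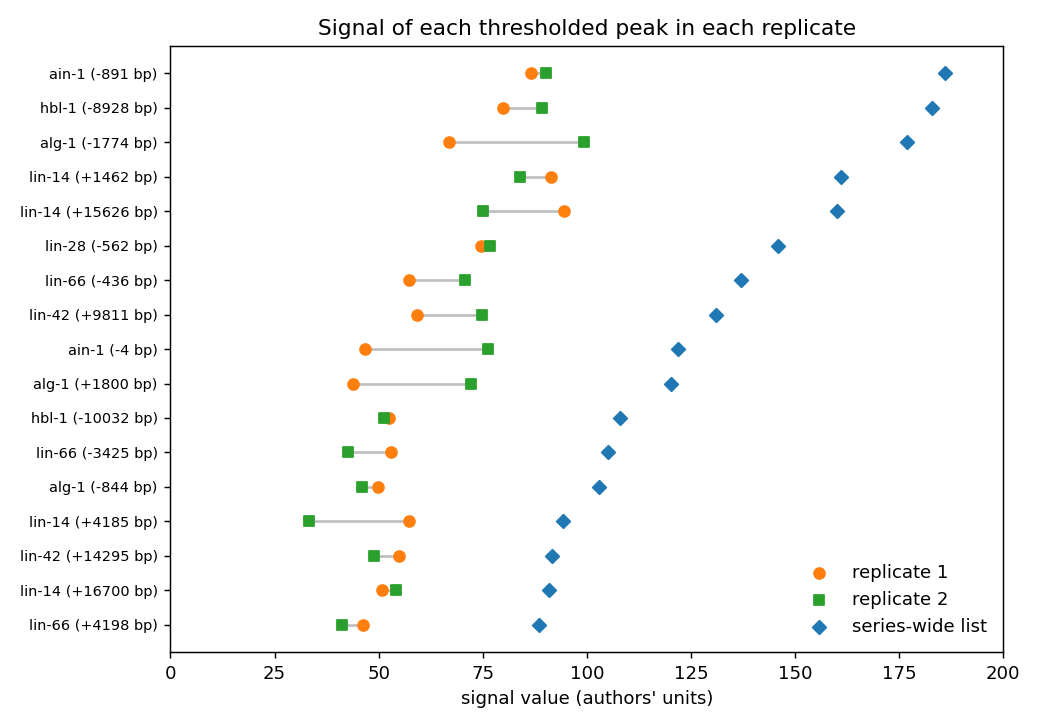
Signal value of the 17 thresholded peaks, ordered by the series-wide signal, in replicate 1 (circles), replicate 2 (squares) and the series-wide list (diamonds); while grey lines join the replicates. The replicates span 43.9 to 94.5 and 33.3 to 99.4, and the widest gaps are at alg-1, the ain-1 start and the lin-14 peak 4185 bp into the gene.

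Peaks short of the threshold were examined in the series-wide ranked lists, which hold 96056 peaks in the ranking behind the thresholded list and 95772 in the one that pairs the replicates. The 10 territories held 239 ranked summits, 15.2 per 10 kb, against 9.6 per 10 kb over the genome. By the conservative list 8 of 10 genes had a summit, against 15.3% of coding genes of all territory lengths. The gene added was lin-29. Besides it, the conservative list had summits of lin-42 at 5414 bp, with a signal of 91.6, and of lin-14 at 17459, 2044 and 2263 bp, with signals of 88.7, 81.6 and 7.08. The last and the one before overlap the same replicate peaks, with signals of 42.4 in replicate 1 and 41.8 in replicate 2.

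The strongest peaks in neither series-wide list, beside those of lin-14, hbl-1, lin-29, lin-41 and lin-46 given with each gene, were weaker than most thresholded ones. At lin-42 a peak 5206 bp into the gene had a signal of 84.1 with scores of 290 and 566. It overlaps the conservative-list peak at 5414 bp. Both have the same replicate values, 50.8 in replicate 1 and 42.5 in replicate 2. At lin-66 a peak 5254 bp in had 75.7 with scores of 625 and 697. At alg-1, peaks 3374 and 6712 bp upstream had 75.5 and 69.9. At lin-28 and ain-1 the next peaks had 55.4 and 57.8, so each of these 2 genes had a wide gap between its called peaks and the rest.

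Signal and score did not always go together in the replicates' own lists. In replicate 2, peaks 226 bp upstream and 63 bp downstream of the lin-66 5′ end had signals of only 8.27 and 4.77 but scores of 1000. In replicate 1 a peak 776 bp upstream of ain-1 had a signal of 11.7 and a score of 1000, beside the main one of 86.7. These small peaks lay next to a stronger one in the same list.

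**Figure D3:**
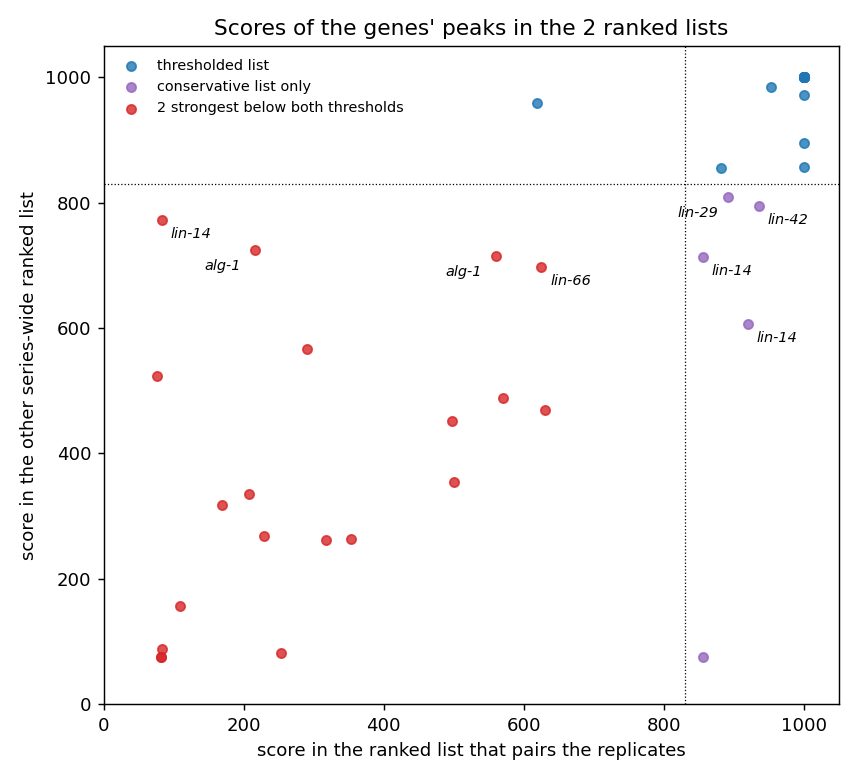
Score of each peak in the ranked list that pairs the replicates (horizontal) and in the other series-wide ranked list (vertical), for thresholded peaks, peaks of the conservative list alone and the 2 strongest others of each gene. Dotted lines mark the threshold of 830. A lin-14 peak at 619 and 959 is the only thresholded one short of the threshold in the pairing list, and the lin-29 and lin-42 peaks of the conservative list lie just under it in the other.

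Over all ranked peaks, the best signal in a territory had a median of 141 for the 10 genes and 47.1 for all coding genes. Among genes of like territory length, the share with a lower best signal was 96.1% for lin-28, 94.0% for ain-1 and 90.6% for alg-1. It was 89.0% for lin-66, 87.7% for hbl-1 and 83.8% for lin-14. That share was 76.4% for lin-42, 67.2% for lin-29, 66.7% for lin-41 and 30.8% for lin-46. The microRNA effectors stood below lin-28 and above the other genes in this order. The ranks have no spread over replicates, and neighbours in the order were not tested.

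**Figure D4:**
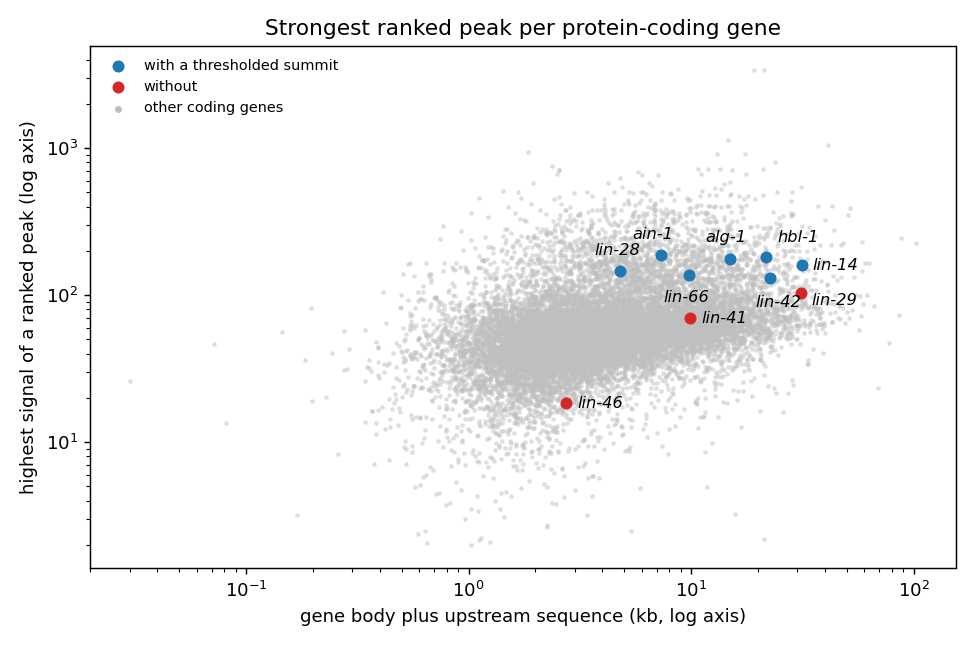
Highest signal of any ranked peak in the territory of each coding gene against the length of the territory, both on log axes; blue points are the 7 heterochronic genes with a thresholded summit, red points the 3 without, grey points other coding genes. Of the 10 genes, 9 lie above the median of 47.1, with lin-46 at 18.5 the exception.

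Each motif was in 4 or fewer of the 17 windows reaching 50 bp to each side of the summit. A posterior Hox motif was in 2 of 17 windows (11.8%) and in 24.7% of all 3559. TGATAA was in 3 (17.6% against 29.9%), at lin-14, lin-28 and hbl-1. GAGAGA was in 4 (23.5% against 13.0%), at lin-42, lin-66, alg-1 and ain-1, and CACGTG in 0 (against 5.39%). In windows reaching 25 bp to each side, chosen after seeing the data, GAGAGA was in 1 of 17 (5.88%) against 6.69% of the list, so its order turned, and at 100 bp it was in 6 (35.3%) against 23.4%. With 17 windows these shares rest on 6 or fewer each. The median share of G and C was 48.5% in the 17 windows, 41.6% over the list and 35.4% over the genome. The Hox and GATA letters are rich in A and T, and the part of base composition in their shares was not tested.

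Other genes of the timing pathway were counted by the same territory rule. A thresholded summit was present at 9 of 19 regulators and targets and at 1 of 8 proteins of the microRNA pathway, together 10 of 27, against the 15.3% of coding genes. Their median territory was 8.9 kb, against 3.5 kb for coding genes. By territory length the counts were 1 of 4 under 5 kb (9.58% of coding genes), 3 of 11 from 5 to 10 kb (21.4%), 2 of 8 from 10 to 20 kb (30.0%) and 4 of 4 over 20 kb (41.1%). The strongest was 803 bp upstream of nhl-2, a TRIM-NHL cofactor of microRNA repression, with a signal of 363, 157 in replicate 1 and 202 in replicate 2, but its nearest 5′ end is that of tag-340. At puf-9, a Pumilio-family gene, the best summit lay 276 bp upstream with a signal of 295, 109 in replicate 1 and 196 in replicate 2. Both exceed every peak of the 10 heterochronic genes.

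The zinc-finger gene sea-2 had 4 summits, the best with a signal of 252 (141 and 130.4 in replicates 1 and 2). The nuclear receptor gene daf-12 had 5, the best with 218 (91.5 and 137), nearest to the 5′ end of M79.2, and its corepressor din-1 had 5, the best with 146 (86.1 and 60.7). The LIN-29 cofactor gene mab-10 had 1, with 158 (64.0 and 90.2), and myrf-1, a membrane-bound factor, had 3, the best with 135 (45.5 and 92.3). The 1 microRNA pathway gene was cgh-1, a DEAD-box helicase gene with 4 summits, the best with 144 (44.6 and 82.1), whereas the paralogs of the effector genes, alg-2 and ain-2, had none.

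Of 6 timing RNA genes, 5 had a thresholded summit: mir-84 (164), let-7 (156), mir-48 and mir-241, which share 1 summit (151), and lep-5 (109.6). The gene lin-4 had none, but it lies inside F59G1.4, so no upstream sequence was counted and its territory was only 94 bp. The nearest coding 5′ end to each of these summits was that of another gene: mboa-1 for mir-84, C05G5.7 for let-7, unc-39 for mir-48 and mir-241, and C02B4.3 for lep-5. Of the 6, 5 are microRNA genes and 4 of these had a summit, against 11.5% of all 261 annotated microRNA genes, which were not matched on territory length. Of 13 genes of the seam and skin, where the timing genes act, 1 had a summit, scm-1 (235), and it lay nearest to the 5′ end of tub-2. That is 1 of 13 against 15.3% of coding genes. By territory length it was 0 of 6 under 5 kb, 0 of 2 from 5 to 10 kb, 1 of 4 from 10 to 20 kb and 0 of 1 over 20 kb, beside the shares of 9.58%, 21.4%, 30.0% and 41.1%.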

How the data were processed

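Whole L4 larvae of 1 tagged php-3 strain were profiled by ChIP-seq in 2 biological replicates, per the labels. The authors deposited 8 peak lists on ce11: for each replicate 1 ranked and 1 thresholded, and for the whole series 2 of either kind. Each peak has a deposited signal value and a deposited score scaled from its irreproducible discovery rate. Aligner and peak caller: not given in the sources used here. Read depth is unknown, and the possible control experiment named in the labels and the signal tracks were not used here. One ranked list pairs the replicates: 46152 and 55508 of its 95772 peaks had an input interval in the replicates' own ranked lists. The other, from which the 3559 thresholded peaks come, had 0 and 2, so the lists it pairs are unknown.

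Genes came from Ensembl release 115 and DNA from the RefSeq genome of WBcel235. Summits were counted per territory. Where another coding gene covered the 5′ end, only the body was used. A replicate's signal is that of its highest ranked peak overlapping by 1 bp. Small RNA names followed the annotation, and let-7 was matched by its WormBase identifier in RefSeq. In the list of seam and skin genes the name elt-5 had no match, so 13 of its 14 names were counted. All 10 genes were named, with up to 8 other timing proteins of highest signal and the timing RNA genes. Members and lists were chosen with earlier results of these data known, so no test was run and no p-value is given. Counting was checked on simulated summits over 19973 genes: 200 of 200 planted territories were found. Python 3.11.15, numpy 2.4.6, pandas 2.3.3 and matplotlib 3.10.9 were used. Alternatives were the conservative list, each replicate's own list, stricter score and signal, other territory rules, 50% overlap and windows reaching 25 or 100 bp to each side of a summit in place of 50.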

Additional observations from a re-analysis of the deposited data

How the results depend on the processing

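The number of the 10 genes with a summit was 7, and from 5 to 7 with 1 replicate's own list at a time: without replicate 2 it was 5, as lin-66 and alg-1 dropped out. It was 8 by the conservative list, 7 with a score of 1000, 7 with a signal above the list's median, 7 with 1 bp of peak overlap, 6 with the upstream part ended at 2 kb, 6 by nearest 5′ end, and 4 in gene bodies alone. The 17 summits became 21 by the conservative list, 7 to 14 with 1 replicate's list (7 without replicate 2), 11 with a score of 1000, 9 above the list's median signal, 8 in gene bodies, 14 at 2 kb, 12 by nearest 5′ end and 17 by overlap. Genes with a peak in both replicates' own lists stayed at 5 with 50% overlap. Windows with a Hox motif were 2 with 50 bp to each side of the summit, 1 with 25 bp and 3 with 100 bp. Fewer peaks, shorter stretches or narrower windows enter by construction in those that fell. No paired analysis was possible because both replicates form 1 group. The highest signal of each of the 7 genes was the same in the conservative list. Both series-wide rankings gave the same highest signal in each of the 10 territories, so this sameness is not a separate check. The replicates' own lists have their own signal scale. Depth limits cannot be given without read numbers.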
